A study of Mus musculus with 6 samples.

Results

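The metallothionein and glutathione stress genes are 8 mouse genes whose products bind metals, conjugate glutathione, break down heme or report on metabolic and stress signals: Mt1, Mt2, Gstm1, Gstm2, Gsta4, Hmox1, Nupr1 and Txnip. They were taken by row name, and all 8 were found among the 28327 genes of the Drop-seq tables and the 49492 genes of the bulk tables. The samples came from glomeruli, the filtering tufts of the kidney, of 8-week-old males of the CD1 IGS outbred strain. 4 Drop-seq libraries (replicates 1 to 4) held single cells from dissociated glomeruli, fixed in methanol at 80% in PBS. In Drop-seq, cells are caught in droplets with barcoded beads, and the unique molecular identifier (UMI) on each RNA copy removes amplification duplicates from the counts. For bulk RNA-seq there was 1 library from dissociated, methanol-fixed, sorted glomerular cells (95 ng of total RNA) and 1 from unfixed whole glomeruli (500 ng). Nothing in the labels tied a library to its own animal, so the p-values below reflect only how far these libraries vary, a variation that may be technical, and no genotype or treatment differed between samples.

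Metallothioneins are small cysteine-rich proteins that hold zinc and copper and bind cadmium. The transcription factor MTF1 senses zinc and switches their genes on through metal response elements, short motifs in the promoter. Glutathione S-transferases attach glutathione to reactive compounds. The mu class includes Gstm1 and Gstm2, and Gsta4, of the alpha class, favours lipid aldehydes such as 4-hydroxynonenal. Hmox1 encodes the inducible heme oxygenase, Nupr1 a small stress-induced chromatin protein, and Txnip the thioredoxin-interacting protein, an arrestin-related protein that binds thioredoxin, limits glucose uptake and is induced by glucose.

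In the GENCODE annotation of GRCm38, Mt1 (chr8:94179082-94180327) and Mt2 (chr8:94172664-94173568) lie next to each other on the plus strand of chromosome 8, which also carries Hmox1 (chr8:75093621-75100589, plus). Gstm1 (chr3:108012255-108017973) and Gstm2 (chr3:107981702-107986453) are neighbours on the minus strand of chromosome 3, and Txnip (chr3:96557957-96561883) lies on its plus strand. Gsta4 is at chr9:78182774-78209349 (plus) and Nupr1 at chr7:126623249-126630861 (minus). All 8 are protein-coding. The antisense gene Gm45774 overlaps an exon of Mt2 and the antisense gene Gm15441 overlaps an exon of Txnip. The authors' annotation and strand setting are not given in the sources used here, so reads of these overlapping pairs cannot be told apart with certainty, and near-identical mu-class copies may share reads.

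Mt1 and Mt2 were both highest in tubular-like cells, as given below. Their promoters are shown, from 250 bases before to 50 bases after the RefSeq start site (GRCm38.p6, plus strand). Of the 8 genes, 6 had a promoter in the RefSeq table. Capitals mark the core of the metal response element, searched as TGCACNC or TGCGCNC on both strands, where N is any base.

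Mt1, chr8:94178839-94179138: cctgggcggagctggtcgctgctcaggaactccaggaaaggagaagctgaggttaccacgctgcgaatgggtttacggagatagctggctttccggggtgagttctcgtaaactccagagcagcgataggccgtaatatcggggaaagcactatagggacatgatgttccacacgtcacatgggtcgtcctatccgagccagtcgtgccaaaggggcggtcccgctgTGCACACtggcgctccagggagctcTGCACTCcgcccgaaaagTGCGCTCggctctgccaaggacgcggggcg

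Mt2, chr8:94172368-94172667: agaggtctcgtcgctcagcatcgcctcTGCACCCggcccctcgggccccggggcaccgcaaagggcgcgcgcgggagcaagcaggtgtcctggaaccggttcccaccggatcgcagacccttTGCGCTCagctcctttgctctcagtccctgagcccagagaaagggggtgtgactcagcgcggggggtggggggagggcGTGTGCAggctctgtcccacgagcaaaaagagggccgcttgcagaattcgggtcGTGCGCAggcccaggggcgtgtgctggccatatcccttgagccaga

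The Mt1 promoter held 3 cores, starting at positions -23, 3 and 21 from the start site, and 1.97% of 32851 mouse promoters of the same length held at least 3. The Mt2 promoter held 4 cores, at -223, -128, -50 and 5, and 0.518% of promoters held at least 4. A single core is common, since 25.7% of promoters held at least 1, among them Gstm1 and Txnip here. The Mt2 promoter also held 1 match to the antioxidant response element core TGACNNNGC, the motif bound by NRF2, which 12.4% of promoters held and which overlapped none of the metal cores. The Nupr1 promoter held the E-box CACGTG 225 bases before its start, as did 7.15% of promoters at any position. These are letter matches and do not show binding. Cores outside the windows were not counted, and a different start site would shift a window and the positions in it.

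Over all 4 libraries there were 15465 barcodes with 18557558 UMIs, from 3528543 to 6411775 UMIs per library, and 13993 cells were kept. Clustering without the 8 genes and without every other pathway gene described here gave 15 clusters, named from marker genes. Podocyte-like cells numbered 10438, endothelial-like 1856, tubular-like 947, parietal epithelial-like 372, mural-like (mesangial, smooth muscle and renin genes) 330 and immune-like 50. Of these barcodes, 3 occurred in more than 1 library. The names rest on markers such as Synpo at 1033 ± 145.3 CPM in podocyte-like cells and Fxyd2 at 7790.0 ± 650.6 CPM in tubular-like cells (SD, n = 4). CPM stands for UMIs per 1000000, within a cell type of a library. Tubular-like cells are nephron segments outside the glomerulus. Their proximal tubule markers summed to 23.7 CPM over 11 genes, 3 of them at 0, and their median mitochondrial share was 14.2%, against 4.26% in podocyte-like cells. The parietal epithelial-like name is the least secure, because these cells carried podocyte markers at 66.4% of the podocyte-like level (55.3% to 76.4%), with Pax2 at 0 and Dkk3 at 258.3 ± 105.1 CPM. Cells with at least 2 markers of each of 2 types made up 39.4% of endothelial-like, 37.0% of tubular-like, 33.6% of mural-like, 23.1% of parietal epithelial-like and 7.72% of podocyte-like cells.

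Each cell type was set against the mean of the other 4 on the log2 scale, with equal weight for each type, in a single edgeR quasi-likelihood fit of 7546 genes with library as a block. Hmox1 did not pass the filter on low counts, so 7 of the 8 genes were tested. A fold is thus relative to the average log2 level of the others, and a very low level in one of them raises it. In tubular-like cells 4 of the 7 genes were higher and 1 lower, where 29.9% and 23.2% of all genes were. Mural-like cells had 3 higher and 3 lower, beside 12.3% and 8.11% of all genes. Endothelial-like cells had 1 higher and 5 lower, beside 27.3% and 21.8%. In parietal epithelial-like cells 3 were higher and 2 lower, beside 8.65% and 6.93%. Podocyte-like cells had 2 higher and 4 lower, beside 25.1% and 20.5%. The median log2 fold of the 7 genes was 1.64 in tubular-like and -3.01 in podocyte-like cells, and that of all genes was 0.05 and 0.01. Counting both directions, a larger share of the 7 was called in each type than of all genes. By direction this did not hold for higher genes in endothelial-like cells or lower genes in tubular-like cells. The 8 genes are few and were chosen with earlier results of these data known, so these shares cannot test for an excess.

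**Figure D1:**
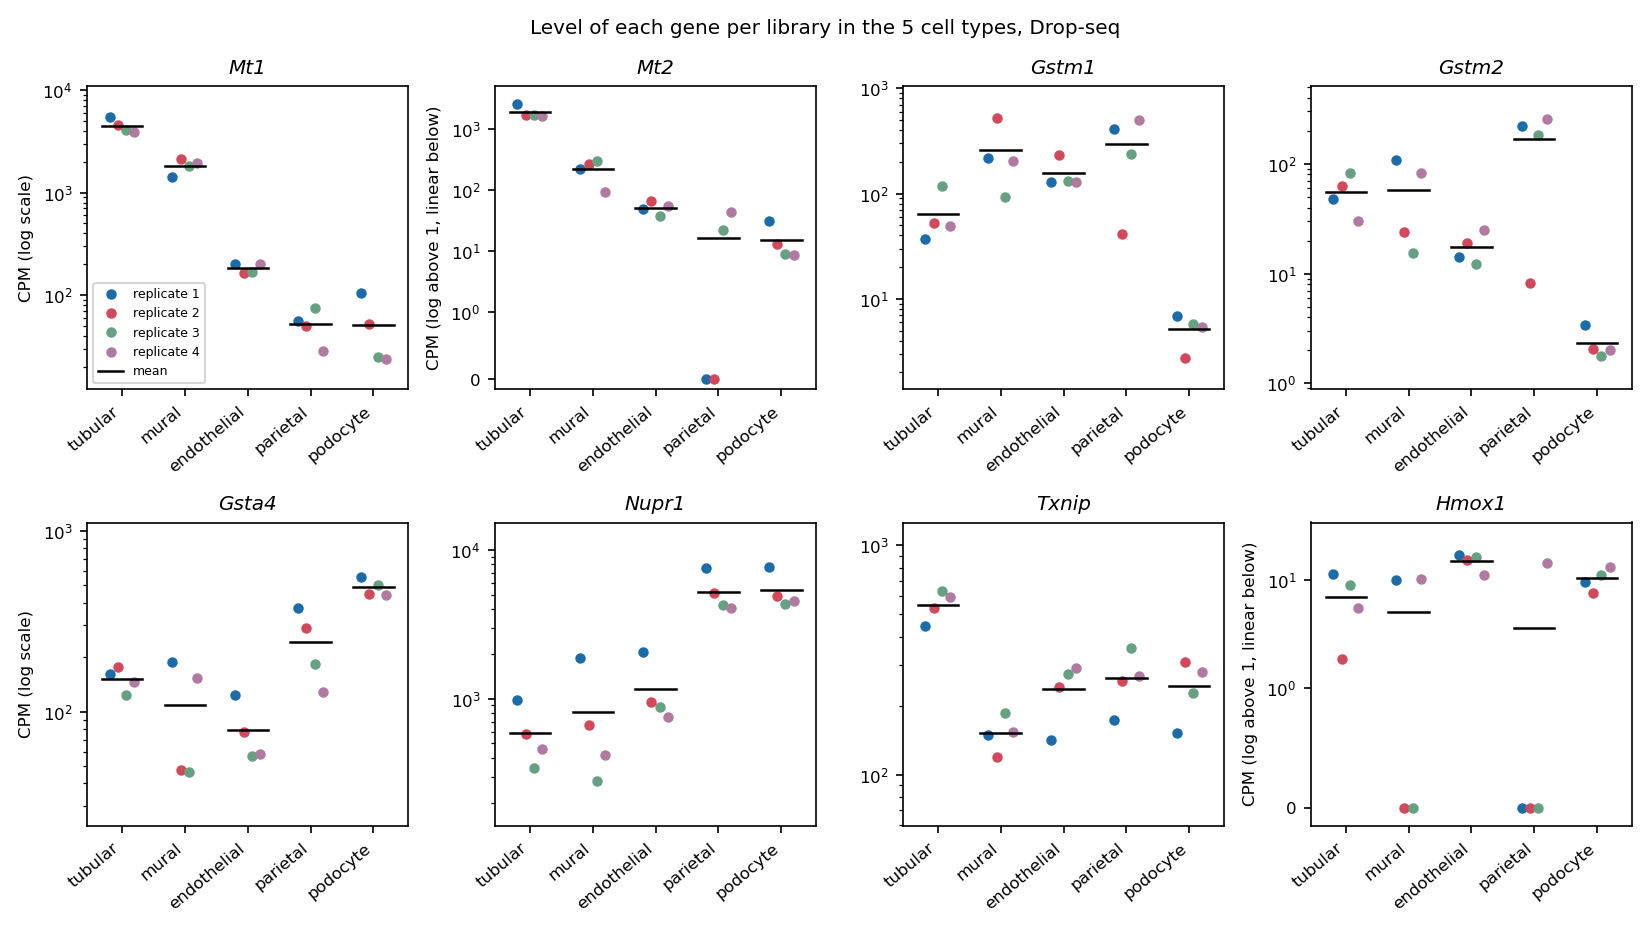
Level of each gene in CPM in the 5 cell types. Each point is 1 Drop-seq library, coloured by replicate, and the black line is the mean of the 4. The y axis is logarithmic, and for Mt2 and Hmox1 it is linear below 1 to show libraries at 0. Mt1 and Mt2 were highest in tubular-like cells, Gstm1 and Gstm2 in parietal epithelial-like cells by the mean, and Gsta4 in podocyte-like cells. Nupr1 was high in podocyte-like and parietal epithelial-like cells alike.

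The metallothionein genes Mt1 and Mt2 were highest in tubular-like cells, where both rose, and were next highest in mural-like cells. Mt1 stood at 5480.0, 4525, 4100.0 and 3877 CPM in the tubular-like cells of replicates 1 to 4. In mural-like cells it was 1422, 2125, 1832 and 1952 CPM. These ranges did not overlap, and the means of 4495 ± 709.5 and 1833 ± 299 CPM (SD, n = 4) differed 2.45-fold. Endothelial-like cells followed at 183.8 ± 19.8 CPM, and no library of any type below overlapped them. Parietal epithelial-like cells, at 52.2 ± 19.4 CPM, and podocyte-like cells, at 51.4 ± 37.5 CPM, overlapped each other. The podocyte-like libraries had 104, 52.3, 25.1 and 24.0 CPM, and without replicate 1, left out after its value was seen, their mean was 33.8 ± 16 CPM (SD, n = 3).

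For Mt2 the 4 libraries gave 2533, 1718, 1701 and 1624 CPM in tubular-like cells, so replicate 1 was highest and the other libraries lay within 100 CPM of each other. Mural-like cells had 216.8 ± 89.1 CPM, and all their libraries were below the tubular-like and above the endothelial-like ones, which averaged 51.2 ± 12 CPM. Parietal epithelial-like cells held 5 Mt2 UMIs in all, 0 of them in replicates 1 and 2, where 3 UMIs over the type would make 6.99 CPM. Podocyte-like cells averaged 15.2 ± 10.5 CPM. Mt2 thus fell off more steeply than Mt1 between tubular-like and mural-like cells, by 8.74-fold against 2.45-fold for Mt1, a difference that was not tested.

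Over the other types, the log2 fold in tubular-like cells was 5.10 ± 0.11 for Mt1 and 6.12 ± 0.12 for Mt2 (SE; edgeR's quasi-likelihood test, adjusted p = 5.37e-58 and 2.32e-62), higher in 4 of 4 libraries. In mural-like cells both also rose, by 2.95 ± 0.16 for Mt1 and 1.48 ± 0.31 for Mt2 (edgeR adjusted p = 1.19e-28 and 9.63e-05). Set against all other cells of a library summed, where tubular-like cells weigh in, Mt2 in mural-like cells was no longer higher (log2 fold -0.36, edgeR adjusted p = 0.312). In podocyte-like cells both fell, with a log2 fold of -3.44 ± 0.25 for Mt1 and -3.01 ± 0.43 for Mt2 (edgeR adjusted p = 2.22e-21 and 6.33e-09). Parietal epithelial-like cells were lower for both, with a log2 fold of -3.57 ± 0.30 for Mt1 and -3.74 ± 0.49 for Mt2 (edgeR adjusted p = 3.26e-17 and 1.52e-09). Endothelial-like cells were lower too, with -1.04 ± 0.20 for Mt1 and -0.85 ± 0.33 for Mt2 (edgeR adjusted p = 8.73e-06 and 0.0246). The Mt2 call in endothelial-like cells was lost without replicate 3 (edgeR adjusted p = 0.196), without replicate 4 (0.141), with DESeq2 (0.111) and without the library block (0.0587). At a mitochondrial limit of 10%, cells were clustered and named anew, which gave 280 parietal epithelial-like cells in place of 372. Tubular-like cells were too few to enter, so the other types were compared without them. How far either change moved the folds that follow was not tested. Mt2 in parietal epithelial-like cells then turned to a log2 fold of 1.34 (edgeR adjusted p = 0.00784), and the Mt1 calls in parietal epithelial-like cells (-0.08, edgeR adjusted p = 0.904) and endothelial-like cells (-0.47, edgeR adjusted p = 0.112) were lost. The size of the low Mt2 folds moved with single libraries, to -3.67 in podocyte-like cells without replicate 1, and in parietal epithelial-like cells to -2.81 without replicate 1 and -4.86 without replicate 4.

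Tubular markers were also counted in the other types. The 14 tubular markers summed to 26800.0 ± 1388 CPM in tubular-like cells. In podocyte-like cells they reached 1.196% of that (1.05% to 1.44% by library), and Mt1 reached 1.07% of its own tubular-like level (0.612% to 1.90%). Mt1 in parietal epithelial-like cells was at 1.17%, beside 1.16% for the markers. In endothelial-like cells Mt1 was at 4.15% (3.64% to 5.20%) and the markers at 1.05% (0.874% to 1.48%), so the ranges were apart. In mural-like cells Mt1 was at 42.0% (26.0% to 50.4%) and the markers at 1.21%. Mt1 thus lay above the tubular markers in mural-like and endothelial-like cells, and its range overlapped theirs in parietal epithelial-like and podocyte-like cells. By library, podocyte-like Mt1 did not track the markers, being at 1.90% beside 1.05% for the markers in replicate 1, and below them in replicates 3 (0.612%) and 4 (0.620% beside 1.16%).

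**Figure D2:**
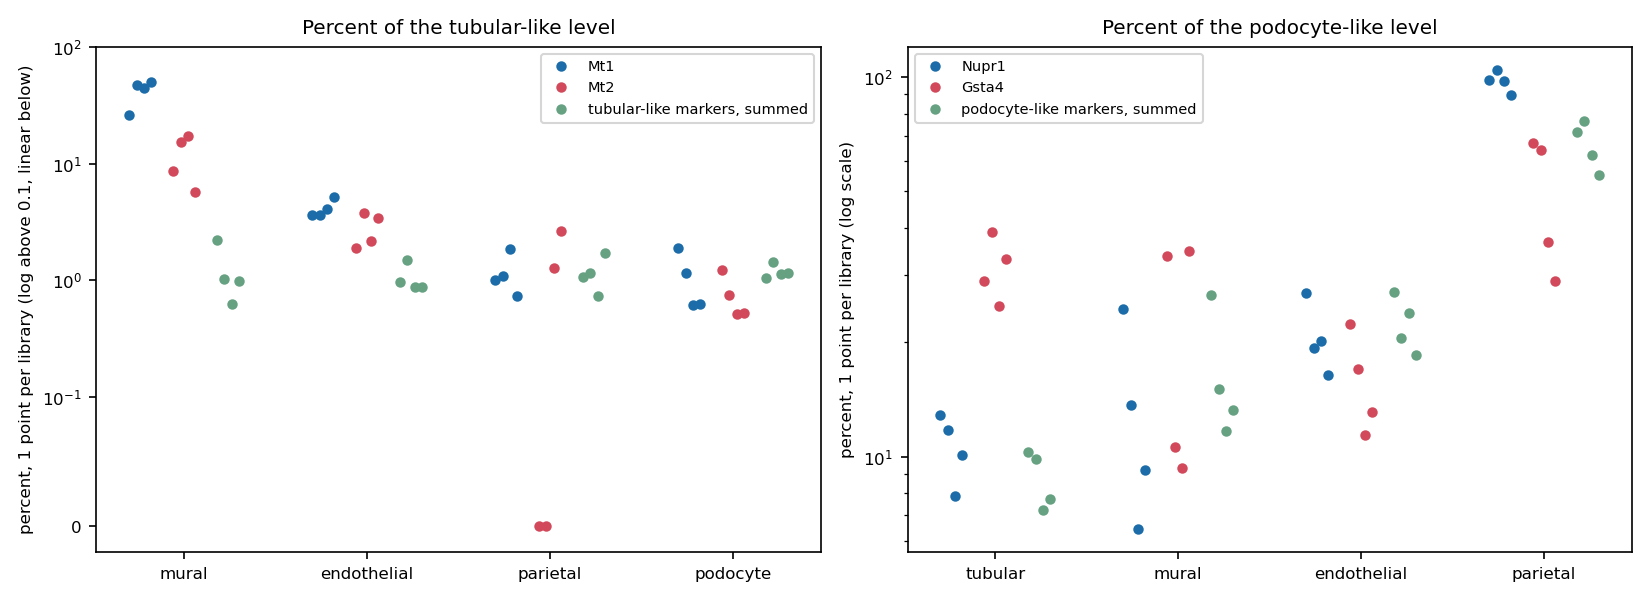
Level of a gene in the cell types named on the x axis, as a percent of its level in tubular-like cells (left) or podocyte-like cells (right). Each point is 1 library, blue and red points are single genes, and green points are the summed markers of the cell type used as 100%. In mural-like and endothelial-like cells Mt1 lies above the tubular markers, whereas Nupr1 overlaps the podocyte markers in tubular-like, mural-like and endothelial-like cells.

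Among single cells thinned to 500 UMIs, which left out 22 tubular-like and 657 podocyte-like cells, 69.2% ± 6.2 of tubular-like cells held at least 1 Mt1 UMI (84.4% before thinning, median depth 1752 UMIs). The share was 40.9% ± 2.74 in mural-like cells (46.8% before thinning, median 775.5 UMIs, 45 cells left out) and 7.17% ± 1.81 in endothelial-like cells (9.80% before thinning, median 641 UMIs, 379 left out). It was 2.30% ± 1.53 in podocyte-like cells (4.93% before thinning, median 1018 UMIs), where the tubular marker Fxyd2 was found in 1.93% ± 0.848. Whether the podocyte-like Mt1 UMIs come from these cells or from free RNA was not tested. Over all tubular-like cells, Mt1 had a mean of 2.26 UMIs after thinning, a variance 2.95 times the mean, and 30.3% of cells at 0. Libraries and clusters were pooled for this, so their differences enter the variance. Across tubular-like cells of a library, of which there were 152 to 430, the log-normalised levels of Mt1 and Mt2 had a Pearson correlation of 0.57 to 0.69, a description of cells that share a library and span several nephron segments. Across podocyte-like cells of a library, few of which held an Mt1 UMI, the correlation was -0.006 to 0.127.

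The tubular-like cells fell into 3 clusters that differed in Mt1. Cluster 0 (712 cells), led by Slc12a3, the sodium-chloride cotransporter of the distal convoluted tubule, and by Umod of the thick ascending limb, had 6063, 5156, 5096 and 4214 CPM of Mt1 in the 4 libraries. Cluster 9 (176 cells), led by the water channel gene Aqp2 and by Calb1 and S100g, had 3648, 2954, 1494 and 1460 CPM. Cluster 10 (59 cells, 9 to 25 per library), led by the proton pump gene Atp6v1g3, had 1411, 880.1, 1077 and 459 CPM. No library of cluster 0 overlapped the other clusters, and clusters 9 and 10 did not overlap each other by a narrow margin. Mt2 followed with means of 2162 ± 450.1, 953.3 ± 675 and 192.7 ± 211 CPM in clusters 0, 9 and 10. Markers of the other segments in each cluster were not tested beside these values.

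**Figure D3:**
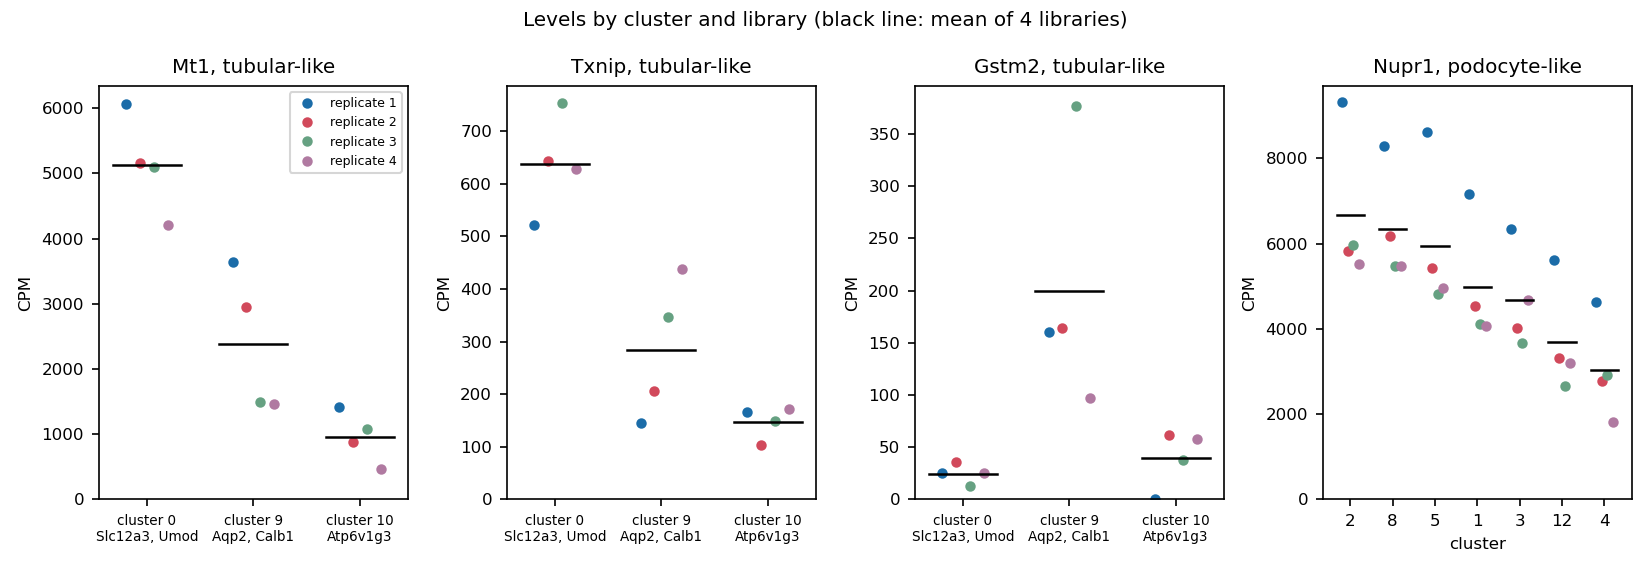
Levels by cluster and library in CPM on linear axes. The first 3 panels show Mt1, Txnip and Gstm2 in the tubular-like clusters 0, 9 and 10, labelled with leading genes, and the last shows Nupr1 in the 7 podocyte-like clusters. Points are libraries and black lines are means of the 4. Mt1 and Txnip were highest in cluster 0 and Gstm2 in cluster 9, and replicate 1 had the highest Nupr1 in every podocyte-like cluster shown.

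The mu-class transferase genes Gstm1 and Gstm2 were lowest in podocyte-like cells, where both fell, and were highest on average in parietal epithelial-like cells. Gstm1 stood at 6.83, 2.76, 5.73 and 5.42 CPM in podocyte-like cells, below every library of every other type. Parietal epithelial-like cells had 414.6, 41.2, 237.7 and 497.9 CPM, so replicate 2, with 5 UMIs, lay far under the other libraries. Mural-like cells had 217.3, 525.3, 93.2 and 204.4 CPM, with replicate 2 the highest. Endothelial-like cells averaged 156.3 ± 51.6 CPM and tubular-like cells 64.2 ± 36.6 CPM, without overlap between them. Parietal epithelial-like, mural-like and endothelial-like ranges overlapped, so their order is not resolved.

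Gstm1 fell in podocyte-like cells (log2 fold -4.97 ± 0.25 SE, adjusted p = 2.22e-31 by the edgeR quasi-likelihood test). The gene rose in parietal epithelial-like cells (2.08 ± 0.27, edgeR adjusted p = 8.95e-10), mural-like cells (1.78 ± 0.33, edgeR adjusted p = 7.05e-06) and endothelial-like cells (1.16 ± 0.21, edgeR adjusted p = 3.44e-06). The endothelial-like rise rests on the log2 mean, since the 4 other types averaged 156.8 CPM on the linear scale. In tubular-like cells Gstm1 missed the threshold (-0.04 ± 0.32, edgeR adjusted p = 0.932). Against all other cells summed, most of them podocyte-like, it was higher there (1.23, edgeR adjusted p = 4.42e-06), and at a clustering resolution of 0.5 it was lower (-0.68, edgeR adjusted p = 0.0339).

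Gstm2 stood at 3.42, 2.07, 1.76 and 2.03 CPM in podocyte-like cells, again below every library of the others. Parietal epithelial-like cells had 221.1, 8.24, 183.7 and 256.1 CPM, with replicate 2 resting on 1 UMI. Mural-like cells averaged 57.5 ± 45.1 CPM, tubular-like cells 55.9 ± 22.2 CPM and endothelial-like cells 17.6 ± 5.66 CPM. Tubular-like and mural-like cells overlapped, and endothelial-like cells lay below tubular-like ones in every library.

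Gstm2 also fell in podocyte-like cells (-4.52 ± 0.34 SE, adjusted p = 5.18e-21 by the edgeR quasi-likelihood test). It rose in parietal epithelial-like cells (2.72 ± 0.33, edgeR adjusted p = 1.15e-10) and in tubular-like cells (1.64 ± 0.27, edgeR adjusted p = 2.39e-07). The tubular-like rise, seen in 3 of 4 libraries, rests on the log2 mean. On the linear scale the other types averaged 61.2 CPM, above the 55.9 CPM of tubular-like cells. At a clustering resolution of 0.5 the tubular-like call was lost (0.66, edgeR adjusted p = 0.0894). In endothelial-like cells it was lower (-1.07 ± 0.39, edgeR adjusted p = 0.018), a call that was lost without replicate 1 (edgeR adjusted p = 0.161), without replicate 3 (0.0881) and with DESeq2 (0.0979), and whose sign turned against all other cells summed (0.16). In mural-like cells it missed the threshold (1.24 ± 0.47, edgeR adjusted p = 0.0518) and passed it without replicate 2 (0.0217) or replicate 3 (0.028). Within the tubular-like cells Gstm2 was highest in cluster 9, with 160.7, 164.4, 377.3 and 97.3 CPM, above 12.1 to 35.7 CPM in cluster 0.

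Both mu-class genes were low in replicate 2 of the parietal epithelial-like cells, the library in which podocyte markers in these cells were highest, at 76.4% of the podocyte-like level. The part of that in the low values was not tested.

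Gsta4, whose product detoxifies lipid aldehydes, rose in podocyte-like cells. It stood at 556.3, 449.8, 498.6 and 441.8 CPM there, above every library of the other types. Parietal epithelial-like cells averaged 243.3 ± 109.1 CPM, tubular-like cells 151.8 ± 22.1 CPM, mural-like cells 108.8 ± 72.6 CPM and endothelial-like cells 78.9 ± 31.5 CPM. Each of these overlapped its neighbour in the order. The log2 fold in podocyte-like cells was 1.76 ± 0.10 (SE; edgeR's quasi-likelihood test, adjusted p = 2.24e-27), higher in 4 of 4 libraries. Gsta4 was lower in endothelial-like cells (-1.53 ± 0.18, edgeR adjusted p = 3.44e-12) and in mural-like cells (-0.80 ± 0.26, edgeR adjusted p = 0.0162). The mural-like call was lost without replicate 2 (edgeR adjusted p = 0.0682), without replicate 3 (0.063) and without the library block (0.0545). Parietal epithelial-like cells missed the threshold (0.41 ± 0.19, edgeR adjusted p = 0.135), and without replicate 4 they passed it (0.60, edgeR adjusted p = 0.0314). Tubular-like cells also missed it (0.15 ± 0.14, edgeR adjusted p = 0.384). Against all other cells summed, Gsta4 was lower in both, with -0.78 in parietal epithelial-like and -1.22 in tubular-like cells (edgeR adjusted p = 0.000127 and 2.9e-13). Without mixed cells the parietal epithelial-like fold was 1.045 (edgeR adjusted p = 0.000192). In tubular-like cells Gsta4 was at 31.5% of the podocyte-like level (24.9% to 39.1%), and podocyte markers were at 8.78% (7.23% to 10.3%).

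Gsta4 thus ran opposite to the mu-class genes between podocyte-like and the other cells. The podocyte-like cells held 90.9% of its 6798 UMIs and 74.6% of the kept cells, while they held 10.4% of the 604 UMIs of Gstm1 and 11.2% of the 267 UMIs of Gstm2.

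Nupr1, the stress-induced chromatin protein gene, was high in podocyte-like and parietal epithelial-like cells alike. It stood at 7619, 4900.0, 4346 and 4553 CPM in podocyte-like cells and at 7484, 5109, 4235 and 4083 CPM in parietal epithelial-like cells. Their ranges overlapped almost wholly, and replicate 1 was the highest in both. Endothelial-like cells had 2060.0, 949.9, 874 and 747.8 CPM. Mural-like cells averaged 808.5 ± 723.7 CPM and tubular-like cells 588.8 ± 277.3 CPM, and both overlapped the endothelial-like range.

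The log2 fold of Nupr1 was 2.07 ± 0.08 in podocyte-like cells and 1.81 ± 0.09 in parietal epithelial-like cells (SE; edgeR's quasi-likelihood test, adjusted p = 3.22e-37 and 1.69e-29). Against all other cells summed, mostly podocyte-like, the parietal epithelial-like fold was 0.16 (edgeR adjusted p = 0.606). Nupr1 was lower in endothelial-like cells (-0.76 ± 0.10, edgeR adjusted p = 9.92e-10), mural-like cells (-1.56 ± 0.14, edgeR adjusted p = 4.08e-17) and tubular-like cells (-1.55 ± 0.11, edgeR adjusted p = 1.72e-22). With at least 500 detected genes per cell the endothelial-like call was lost (-0.19, edgeR adjusted p = 0.202), and the mural-like fold was -2.15 without replicate 1.

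Podocyte markers in other types give a scale for these levels. Nupr1 in endothelial-like cells was at 20.7% of its podocyte-like level (16.4% to 27.0%) and the summed podocyte markers were at 22.5% (18.6% to 27.2%). In mural-like cells the values were 13.5% for Nupr1 and 16.6% for the markers, and in tubular-like cells 10.6% for Nupr1 and 8.78% for the markers. In each of these types the ranges of Nupr1 and of the 10 markers overlapped, and whether Nupr1 there came from podocytes was not tested. In parietal epithelial-like cells Nupr1 was at 97.4% (89.7% to 104.3%) and the markers were at 66.4% (55.3% to 76.4%), without overlap.

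Thinned to 500 UMIs, 80.2% ± 6.42 of podocyte-like cells held a Nupr1 UMI (89.6% before thinning), against 25.1% ± 8.47 of endothelial-like cells (29.6% before thinning). Podocyte-like cells averaged 2.67 Nupr1 UMIs after thinning, with a variance 2.5 times the mean and up to 25 UMIs in a cell. Libraries and clusters were pooled here too, so their differences enter the variance. Across the 7 podocyte-like clusters the mean ran from 3030.0 ± 1172 CPM in cluster 4 to 6663 ± 1785 CPM in cluster 2. Cluster 2 is led by early response genes such as Cyr61, Nfkbia and Zfp36. Its libraries (5521 to 9325 CPM) overlapped those of clusters 8 (5462 to 8302 CPM) and 5 (4809 to 8630 CPM). With libraries pooled, cluster 8 was above it, at 6864 CPM beside 6632 CPM, so the highest cluster is not resolved. The summed level of 9 dissociation response genes (Fos, Jun and Hspa1a among them) was also highest in podocyte-like cells, at 32910.0 ± 2753 CPM, followed by 28370.0 ± 2213 CPM in parietal epithelial-like, 19530.0 ± 4283 CPM in mural-like, 18180.0 ± 3444 CPM in endothelial-like and 10220.0 ± 1549 CPM in tubular-like cells. Its part in the Nupr1 levels was not tested.

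Txnip was highest in tubular-like cells, where it rose, and lowest in mural-like cells, where it fell. It stood at 443.3, 532.5, 629.1 and 596.5 CPM in tubular-like cells. All 4 libraries were above all those of the other types, which averaged 263.8 ± 75.3 CPM in parietal epithelial-like, 242.6 ± 69.6 CPM in podocyte-like, 237.3 ± 67.6 CPM in endothelial-like and 151.8 ± 27.4 CPM in mural-like cells and overlapped each other. The log2 fold was 1.70 ± 0.10 in tubular-like cells (SE; edgeR's quasi-likelihood test, adjusted p = 1.44e-26) and -1.05 ± 0.22 in mural-like cells (edgeR adjusted p = 8.06e-05). At the mitochondrial limit of 10%, with cells clustered anew and without tubular-like cells, the mural-like call was lost (-0.64, edgeR adjusted p = 0.0608). In podocyte-like cells it missed the threshold (-0.21 ± 0.10, edgeR adjusted p = 0.0966), and passed it without replicate 2 (-0.34, edgeR adjusted p = 0.0134), with DESeq2 (-0.33, adjusted p = 0.0341) and against all other cells summed (-0.64, edgeR adjusted p = 2.55e-05), while without the filter on low counts its sign turned (0.20). Endothelial-like cells (-0.19 ± 0.13) and parietal epithelial-like cells (-0.25 ± 0.17) also missed it (edgeR adjusted p = 0.209 and 0.372). Among the tubular-like clusters Txnip averaged 637.2 ± 95 CPM in cluster 0, 283.8 ± 132.8 CPM in cluster 9 and 147.3 ± 31.6 CPM in cluster 10, the same order of means as for Mt1.

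Hmox1, the inducible heme oxygenase gene, was near the limit of these data. The kept cells held 165 Hmox1 UMIs, 128 of them in podocyte-like cells. It stood at 16.9, 15.3, 16.3 and 11 CPM in endothelial-like cells and at 9.63, 7.60, 11 and 13.2 CPM in podocyte-like cells, with overlapping ranges. Tubular-like cells averaged 6.88 ± 4.10 CPM on 11 UMIs, and mural-like and parietal epithelial-like cells held 2 and 1 UMIs. No order among the types could be detected at this depth.

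**Figure D4:**
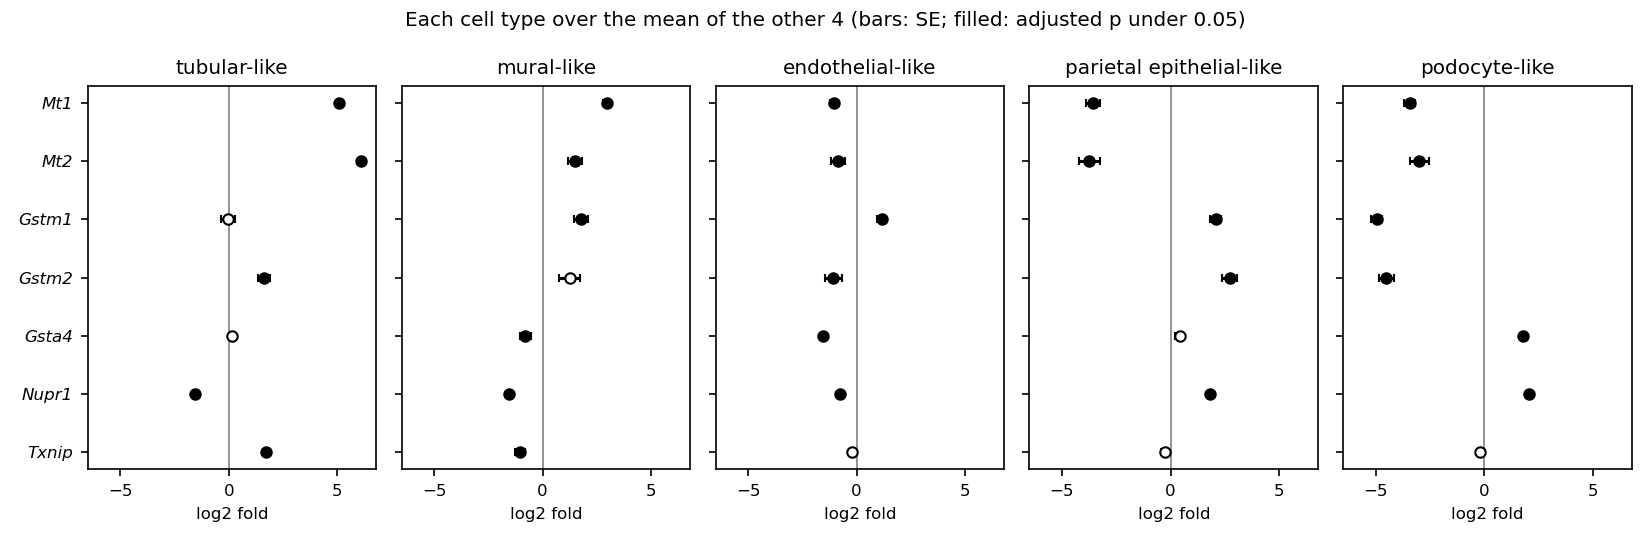
Log2 fold of each tested gene in a cell type over the mean of the other 4. Points are edgeR estimates, bars their SE, filled points passed an adjusted p of 0.05, and the grey line marks no difference. Mt1 and Mt2 lie right of 0 in tubular-like and mural-like cells and left of it elsewhere, and Gstm1 and Gstm2 lie furthest left in podocyte-like cells.

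The 50 immune-like cells were too few to test. Summed over libraries, they held 57 Nupr1 UMIs (1296 CPM, exact 95% Poisson interval 981.3 to 1679), 9 Mt1 UMIs (204.6 CPM, 93.5 to 388.4) and 8 Gsta4 UMIs (181.9 CPM, 78.5 to 358.3). The other 5 genes had from 0 to 5 UMIs. These intervals cover counting error only.

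For Nupr1, Gsta4 and Txnip the libraries differed in a way that most cell types shared. Replicate 1 was the highest library for Nupr1 in 5 of 5 cell types and for Gsta4 in 4 of 5, and the lowest for Txnip in 4 of 5. It was highest in 2 of 5 for Mt1, Mt2, Gstm2 and Hmox1 and in 1 of 5 for Gstm1. How often a library leads in this way among all genes was not counted. Nupr1 over all barcodes was 6100.0 CPM in replicate 1 and 3578, 3090.0 and 3461 CPM in replicates 2 to 4. Replicate 1 also had the lowest median depth of kept cells, 816 UMIs beside 907 to 1156 in the others, and the lowest sum of dissociation response genes, 25520.0 CPM beside 28570.0 to 30710.0. Median mitochondrial shares lay between 4.53% and 4.94%. The part of depth or of handling in the library pattern was not tested.

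The likest genes were taken over the 20 sums of a library and cell type, which share libraries and depth, as the 3 highest Pearson correlations of log2 CPM among 7539 other genes. For Mt1 these were Tesc (0.94), Kalrn (0.94) and Bdh1 (0.94), and for Mt2 Cycs (0.95), Hoxb8 (0.94) and Idh3g (0.93), while Mt1 with Mt2 reached 0.92. Gstm1 was likest to Arhgef2 (0.89), Hbegf (0.86) and Col4a1 (0.85), and Gstm2 to Myh10 (0.91), Sox4 (0.81) and Gm26735 (0.79). The pair Gstm1 and Gstm2 had 0.78. Gsta4 was likest to Dynll2 (0.94), Sh3bp5l (0.93) and Rassf10 (0.92), and Nupr1 to Cd59a (0.97), Gadd45a (0.96) and Myl12a (0.95). Txnip was likest to Lamp1 (0.92), Tmbim6 (0.91) and Top3b (0.91). These values order genes by pattern and carry no test.

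Other genes of the same pathways were read beside these, and their counts are to be set against all genes, of which 29.9% were higher and 23.2% lower in tubular-like cells and 25.1% higher and 20.5% lower in podocyte-like cells. Of 9 tested glutathione transferase genes outside the 8, all 9 were higher in tubular-like cells, with a median log2 fold of 2.88 beside 0.05 for all genes. Among them were the microsomal transferase gene Mgst1 at 263 ± 34.6 CPM in tubular-like cells and at most 40.03 CPM on average in another type (log2 fold 5.13 ± 0.21, edgeR adjusted p = 1.62e-38) and the theta-class gene Gstt1 at 172.8 ± 58.8 CPM (4.74 ± 0.23, edgeR adjusted p = 1.22e-33). In podocyte-like cells 7 of the 9 were lower and 0 higher (all genes 20.5% and 25.1%), with a median of -1.48. Gstm5, of the same mu class, was at 1.5 ± 0.386 CPM in podocyte-like cells and at most 41.8 CPM on average elsewhere (-3.36 ± 0.45, edgeR adjusted p = 9.64e-10).

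Of 11 tested genes of glutathione synthesis and reduction, 9 were higher and 0 lower in tubular-like cells (all genes 29.9% and 23.2%). In podocyte-like cells 3 were higher, near the 25.1% of all genes, and 6 lower, beside 20.5%. Gclc, the catalytic subunit of the enzyme that starts glutathione synthesis, was at 164.7 ± 9.27 CPM in tubular-like cells and 12.3 ± 1.09 CPM in podocyte-like cells. The glutathione peroxidase family genes Gpx4 (495 ± 84.6 CPM) and Gpx8 (240.4 ± 14.7 CPM) rose in podocyte-like cells. Their log2 folds were 0.88 ± 0.09 and 1.125 ± 0.109 (edgeR adjusted p = 1.16e-14 and 3.11e-15). Gpx8 also rose in parietal epithelial-like cells, where its mean was higher, at 278.3 ± 39.1 CPM (1.21 ± 0.19, edgeR adjusted p = 1.88e-07). Gpx1, of the same family, fell in podocyte-like cells, at 169.4 ± 18.6 CPM (-1.87 ± 0.10, edgeR adjusted p = 9.17e-29). Of 13 NRF2 targets and regulators, 3 were higher in podocyte-like cells, near the 25.1% of all genes, and 5 lower, beside 20.5%. Nfe2l2, which encodes NRF2, was highest in endothelial-like cells at 219.7 ± 29.4 CPM (1.48 ± 0.15, edgeR adjusted p = 1.88e-14), and 6 of the 13 were higher and 4 lower in tubular-like cells (all genes 29.9% and 23.2%).

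Of 10 tested genes of metal homeostasis, only 1 was higher and 1 lower in tubular-like cells and 0 were called in mural-like cells, the types with the highest Mt1, beside the 29.9% and 12.3% of all genes that were higher there. The zinc exporter gene Slc30a1, an MTF1 target, was higher in endothelial-like cells, at 60.2 ± 13.9 CPM and at most 16.3 CPM on average in another type (2.27 ± 0.30, edgeR adjusted p = 5.51e-10). Of 12 thioredoxin system genes, 7 were higher and 2 lower in tubular-like cells (all genes 29.9% and 23.2%), where the peroxiredoxin gene Prdx5 stood at 1574 ± 104.2 CPM (3.33 ± 0.09, edgeR adjusted p = 1.19e-52). Of 9 heme and iron genes, 3 were higher and 2 lower in tubular-like cells, near those shares, and the higher ones included the ferritin heavy chain gene Fth1 at 6202 ± 220.8 CPM (1.95 ± 0.07, edgeR adjusted p = 2.84e-42). Of 10 integrated stress response genes, 3 were higher and 3 lower in podocyte-like cells, near the 25.1% and 20.5% of all genes. In tubular-like cells 2 were higher, below the 29.9% of all genes, and 5 lower, beside 23.2%. Ddit3 was at 324.7 ± 34.2 CPM in podocyte-like cells (0.73 ± 0.09, edgeR adjusted p = 1.54e-10), and Ddit4 was at 2.95 ± 1.41 CPM there and at 118.6 CPM on average in endothelial-like cells.

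The bulk libraries set dissociated, fixed cells beside whole, unfixed glomeruli. With 1 library per group there is no replicate check and no p-value, and a ratio compares these libraries. They held 24555632 reads on genes (dissociated) and 28407317 (whole). Of the 8 genes, 7 had at least 100 reads over both libraries. Past 2-fold, 3 were higher and 2 lower in the dissociated library, where 10.7% and 18.9% of 12692 genes were. Fewer cells of a type and less RNA per cell cannot be told apart in bulk samples.

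Nupr1 was 8.61-fold higher in the dissociated library (95% counting interval 8.40 to 8.83), with 42586 reads and 1934 TMM-scaled CPM there, against 7116 reads and 224.6 CPM in whole glomeruli. Its ratio stood at percentile 99.4 of the 12692 genes. Gsta4 was 2.85-fold higher (2.73 to 2.97), with 281.1 CPM in the dissociated library and 98.8 CPM in whole glomeruli. The 10 podocyte markers had a median log2 ratio of 1.10 and a highest of 1.85, so Nupr1 (3.10) lay above their range and Gsta4 (1.51) within it. All 9 dissociation response genes were higher in the dissociated library, with a median of 2.85 and a range of 1.5 to 3.96. The part of handling and of cell makeup in the Nupr1 ratio cannot be told apart with 1 library each.

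The mu-class genes went the other way. Gstm1 had 932 reads (42.3 CPM) in the dissociated library and 6016 reads (189.9 CPM) in whole glomeruli, a log2 ratio of -2.16. Gstm2 had 433 reads (19.7 CPM) in the dissociated library and 2063 reads (65.1 CPM) in whole glomeruli, a log2 ratio of -1.72. By the median, markers of several types were also lower in the dissociated library. The median log2 ratio was -1.5 for 10 endothelial markers, of which 7 were past 2-fold lower and 1 higher. It was -2.28 for 11 mural markers and -6.17 for 11 proximal tubule markers. All 11 proximal tubule markers were lower, with a sum of 16.2 CPM in the dissociated library and 1515 CPM in whole glomeruli. Their part in the mu-class ratios was not tested.

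Mt1 had 852 reads in the dissociated library and 599 in whole glomeruli, a log2 ratio of 1.03, only just past 2-fold. Without TMM scaling, which lowers every log2 ratio by about the same amount (-0.31), it was 0.72 and no longer past 2-fold. The 14 tubular markers, scaled by TMM, had a median log2 ratio of -0.24 and a range of -7.64 to 0.76. The part of tubular cells in the Mt1 ratio was not tested. Mt2 had 29 reads in the dissociated library and 5 in whole glomeruli, fewer than the minimum of 100 set for a ratio. These few reads contrast with 5671 Mt2 UMIs in Drop-seq. Reads of Mt2 lost in bulk counting to the overlapping antisense gene or to the annotation cannot be told from a low level. This holds for all bulk values of Mt2. No annotated gene overlaps Mt1, which had 34.7 unscaled CPM in the dissociated library and 764.9 CPM over all Drop-seq barcodes. The cause of that gap was not tested. Hmox1 was higher without passing 2-fold, at 0.92, with 31.3 CPM in the dissociated library and 16.5 CPM in whole glomeruli. Txnip had a log2 ratio of -0.16, with 721.3 CPM in the dissociated library and 804.2 CPM in whole glomeruli. RPKM were taken from unscaled CPM, per kilobase of all annotated exon bases of a gene. The exon bases of Mt1, 1246, cover its whole annotated span, so the order of genes depends on the annotation. The dissociated library held 689.8 RPKM of Nupr1, 207.1 of Txnip, 199.1 of Gsta4 and 27.9 of Mt1. It held 25.8 of Gstm1, 16.1 of Hmox1, 10.5 of Gstm2 and 2.01 of Mt2. In whole glomeruli the order began with Txnip at 287.1 RPKM, Gstm1 at 143.8 and Nupr1 at 99.6.

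**Figure D5:**
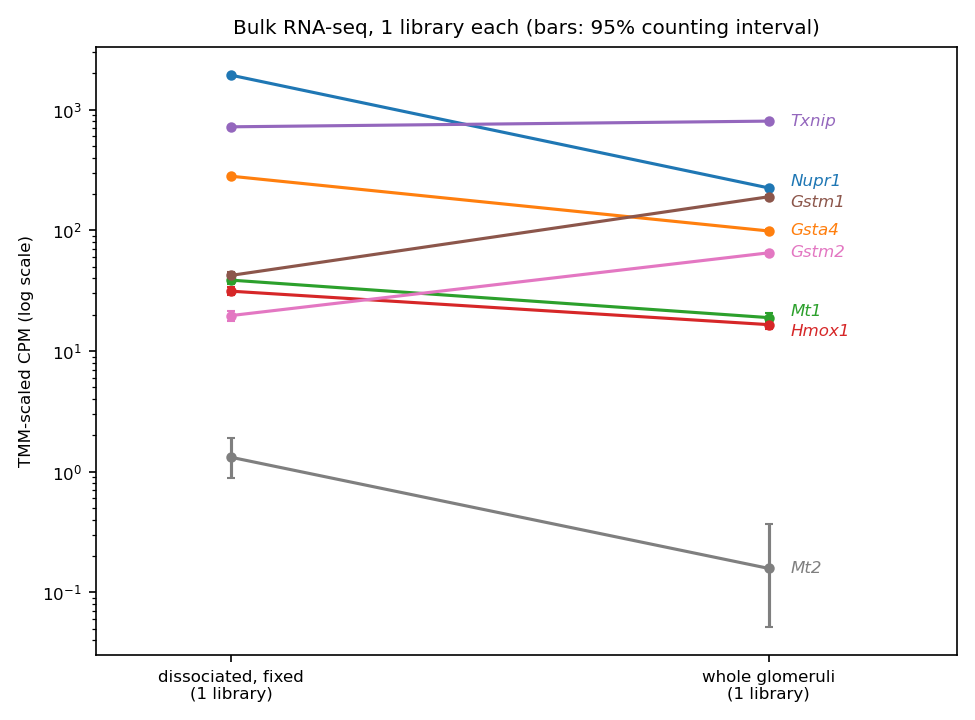
TMM-scaled CPM of the 8 genes in the bulk library of dissociated, fixed cells (left) and of whole glomeruli (right), on a log axis. Each point is 1 library, and bars are exact 95% Poisson intervals of the read counts, which cover counting error only. Nupr1, Gsta4, Mt1, Hmox1 and Mt2 slope down to the right, Gstm1 and Gstm2 slope up, and Txnip is nearly level.

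Among the pathway lists, 9 of 23 integrated stress response genes were past 2-fold higher in the dissociated library and 2 lower (all genes 10.7% and 18.9%), with a median log2 ratio of 0.51 beside -0.01 for all genes. Ppp1r15a, which reverses the phosphorylation of eIF2 alpha, had 997.8 CPM in the dissociated library and 92.8 CPM in whole glomeruli, and Ddit3, which encodes the stress factor CHOP, had 181 CPM in the dissociated library and 25.6 CPM in whole glomeruli. Of 12 glutathione transferase genes outside the 8, 1 was higher and 2 were lower, near the shares of all genes. Of 16 genes of glutathione synthesis and reduction, 4 were higher, led by Gpx8 (167.7 CPM dissociated, 47.8 CPM whole), and 2 were lower, among them Ggt1 (4.31 CPM dissociated, 56.5 CPM whole), the gamma-glutamyl transferase gene that is abundant in proximal tubule. Of 22 NRF2 targets and regulators 3 were higher and 6 lower, and of 15 metal homeostasis genes 0 were higher and 2 lower, again beside 10.7% and 18.9% of all genes.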

How the data were processed

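The deposited Drop-seq tables hold raw UMI counts per gene and barcode, and the deposited bulk tables hold raw read counts per gene, made by the authors. STAR and HTSeq are named in the submitters' processing notes. Their settings, the genome build and the annotation are not given in the sources used here. HTSeq summary lines were left out of bulk totals (no feature, 6.14% of all lines tallied in the dissociated and 9.68% in the whole library). No column of another series was met.

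A barcode was kept as a cell if it had 300 or more genes detected and no more than 20% of its UMIs from mitochondria. Clustering in scanpy 1.11.5 used depth-normalised values, 10000 per cell (2000 variable genes, 30 principal components, 15 neighbours, Leiden resolution 1.0), with all 142 listed genes held out. A cluster took the type with the highest marker score, or, among types within 0.15 of it, the one with the most markers among its leading genes. No doublet caller was run, and an alternative left out mixed-marker cells. Libraries held 4099, 4017, 2809 and 3068 kept cells, with a median of 965 UMIs. Counts of any pair of libraries differed beyond sampling noise (chi-square per degree of freedom 4.37 to 14.1).

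For each type with 20 cells or more in 3 libraries or more, sums of UMIs by library were fitted with edgeR 4.0.16 in R 4.3.3, with TMM, filterByExpr (minimum count 10), library as a block and Benjamini-Hochberg adjustment over 7546 genes at 0.05. Cell types of a library share its cells and handling, which is where the block comes from. DESeq2 1.42.0 was an alternative. In bulk, log2 ratios of TMM-scaled CPM used a prior count of 2 and genes with at least 100 reads summed. Intervals at 95% and the floor of 3 counts cover counting error only. The scripts were tested on simulated data.

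The 8 genes, the other gene lists and the markers were chosen with earlier results of these data known. All 8 are named throughout. Other listed genes were taken from the 3 with the largest folds per list and direction, if called and of equal sign in every library. Likest genes were the 3 with the highest correlation. Between cell types 13 alternatives were run, and in bulk 4.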

Additional observations from a re-analysis of the deposited data

Results flagged for a closer look

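In each gene and cell type, the 4 libraries were searched for 1 that stood apart by Dixon's criterion, over 38 groups. Chance flags about 1 in 20 groups. Mt2 in tubular-like cells had 2533 CPM in replicate 1, with the other libraries at 1718, 1701 and 1624 CPM. Gstm1 in endothelial-like cells had 233.6 CPM in replicate 2, and 129.8, 132.1 and 129.7 CPM in replicates 1, 3 and 4. Nupr1 in podocyte-like cells had 7619 CPM in replicate 1, and 4900.0, 4346 and 4553 CPM in replicates 2 to 4. Nupr1 in endothelial-like cells had 2060.0 CPM in replicate 1, and 949.9, 874 and 747.8 CPM in replicates 2 to 4. The level of podocyte markers in endothelial-like cells was also highest in replicate 1, at 27.2% of the podocyte-like level, beside 18.6% to 23.9% in the others. Its part in the Nupr1 value was not tested.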

How the results depend on the processing

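Between cell types, 448 alternative log2 folds were computed, and 401 kept their direction and their side of the threshold. Of the rest, 20 were no longer called, 14 became called and 13 changed sign. Signs turned against all other cells summed for Gstm2 in endothelial-like cells (0.163), Mt2 in mural-like cells (-0.363), Gsta4 in parietal epithelial-like cells (-0.777), and Gstm1 (1.226) and Gsta4 (-1.218) in tubular-like cells. That setting sums the UMIs of all other cells of a library, so cells weigh by their depth. Podocyte-like cells then make up most of the sum for each other type. For Mt2 in mural-like cells the tubular-like cells also weigh in, at 1894 CPM beside 15.2 CPM in podocyte-like cells. At a mitochondrial limit of 10%, signs turned for Txnip in podocyte-like (0.095), endothelial-like (0.204) and parietal epithelial-like cells (0.344) and for Mt2 in parietal epithelial-like cells (1.344). Cells were clustered and named anew at that limit, and tubular-like cells were too few to be compared and gave no value. Without the filter on low counts Txnip in podocyte-like cells was 0.202. The cause was not tested. Leaving out 1 library at a time, tubular-like Gstm1 ranged from -0.570 to 0.104 and tubular-like Gsta4 from -0.125 to 0.279.

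In endothelial-like cells the count of lower genes, 5 with all libraries, was 3 with DESeq2, at the mitochondrial limit of 10% and without mixed cells, and ranged from 3 (without replicate 3) to 5 when a library was left out. The count of higher genes there was 2 without the filter. The lower count in parietal epithelial-like cells was 0 at the mitochondrial limit of 10%, and that in tubular-like cells was 2 at resolution 0.5 and against all other cells. Without the replicate block the endothelial-like lower count was 4, and of the single genes Mt2 in endothelial-like cells (adjusted p = 0.0587) and Gsta4 in mural-like cells (adjusted p = 0.0545) lost their edgeR calls. In bulk, 2 genes were past 2-fold higher without TMM scaling and 4, Mt2 included, with a minimum of 10 reads. The mean of Mt1 in podocyte-like cells was 33.8 CPM without replicate 1, a setting added after the data were seen. Mural-like Mt2 and Gstm2, parietal epithelial-like Mt2 and all Hmox1 values rest on few UMIs, 61, 21, 5 and 165 in all.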

Other observations

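Dissociated, fixed cells were measured by both assays, so the level of each gene over all barcodes of the 4 Drop-seq libraries can be set beside the bulk library of dissociated cells, in unscaled CPM. The assays differ in which cells they hold and in what part of an RNA they count, and no test was made. Whether bulk counting lost Mt2 reads to its antisense neighbour was not tested. Mt1 stood at 764.9 ± 254.5 CPM in Drop-seq (SD, n = 4) and at 34.7 CPM in bulk, a ratio of 22.0. Of 9213 genes with at least 100 UMIs and 100 reads, 11 had a higher ratio, and the median ratio was 0.796. The 11 tubular markers with a value had ratios of 0.722 to 10.2, with a median of 2.10, and the 10 podocyte markers ran from 0.156 to 3.50. Mt2 had 5671 UMIs in Drop-seq and 29 reads in bulk, which is 288.8 ± 92 CPM in Drop-seq and 1.18 CPM in bulk. Nupr1 had 4057 ± 1377 CPM in Drop-seq and 1734 CPM in bulk, and Gsta4 378.2 ± 48.6 CPM in Drop-seq and 252.1 CPM in bulk. Gstm1 was at 37.1 CPM in Drop-seq and 37.9 CPM in bulk, and Gstm2 at 16.3 CPM in Drop-seq and 17.6 CPM in bulk. Txnip was at 287.4 CPM in Drop-seq and 646.9 CPM in bulk, and Hmox1 at 9.91 CPM in Drop-seq and 28.1 CPM in bulk.

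Barcodes outside the kept cells also carried metallothionein transcripts. Of 15079 Mt1 UMIs in all barcodes, 11127 were in kept cells, and of 5671 Mt2 UMIs 4247 were. Of 75504 Nupr1 UMIs, 74775 were in kept cells. The tubular markers also had many UMIs outside them, with 5359 of 8987 Umod UMIs and 17140 of 25639 Fxyd2 UMIs in kept cells. Which kinds of barcode held the rest was not tested.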
